A study of Homo sapiens with 2 samples.

Results

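The spectrin genes SPTAN1, SPTB, SPTBN1, SPTBN4 and SPTBN5 were followed through an RNA immunoprecipitation from HUH7 cells, an established human hepatocellular carcinoma line. The 5 genes were taken by name from a deposited table of 56303 genes. Of these, 4 had at least 20 reads in both libraries together and are among the 17915 genes so kept. SPTBN4 did not reach that minimum. The comparison is between 1 library of RNA recovered with an antibody against ZMAT2, called the ZMAT2 IP, and 1 library from lysate that was not precipitated, called Input. Both come from HUH7 lysate, with no genotype change or treatment given in the labels. A rabbit IgG precipitation that the protocol describes was not analysed here, so a higher value in the IP cannot on its own be read as binding to ZMAT2. ZMAT2 is a zinc-finger protein of the spliceosome, and the stated aim of the study was to ask whether it acts in liver cancer through splicing. The counts used here are per gene and do not separate isoforms.

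Spectrins are long, flexible proteins of the membrane skeleton. An alpha and a beta subunit wind around each other, and these pairs join end to end into tetramers that cross-link short actin filaments under the plasma membrane. Beta subunits carry the actin-binding domain and the site that ankyrin holds, while alpha subunits carry an SH3 domain and, in alpha II spectrin, the site cut by calpains and caspases. In most nucleated cells, hepatocytes included, alpha II spectrin (SPTAN1) is the common alpha subunit and beta II spectrin (SPTBN1) the common beta subunit. SPTB encodes the beta subunit of red blood cells and muscle. Beta IV spectrin (SPTBN4) is known from axon initial segments and nodes of Ranvier, and SPTBN5 encodes beta V spectrin, an unusually long beta subunit.

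The libraries held 25047635 reads in genes for the ZMAT2 IP and 23485789 for Input. Values were scaled with TMM, which centres the log2 ratio of IP over Input on the bulk of genes (median 0.0059 over all genes kept). All intervals are 95% counting intervals, and since each group is a single library, no difference has a replicate check or a p-value. A gene was called higher or lower when it differed at least 2-fold and its interval left out a log2 ratio of 0. By this rule 7.41% of all genes kept were higher in the IP and 6.96% lower. Library totals in place of TMM shifted the median log2 ratio by -0.106, and the share of all calls that were higher was then 39.6%, against 51.6% with TMM. As a check on the cell type, all 13 hepatocyte markers were kept, and their summed level was 15580 CPM in the ZMAT2 IP, against 20810 CPM in Input, with log2 ratios of -0.69 to 0.49 and none called. The mRNA of ZMAT2 itself was at 1514 CPM in the ZMAT2 IP, against 212.9 CPM in Input.

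All 4 spectrin genes kept were called higher in the ZMAT2 IP, where 7.41% of all genes were. The mRNAs of the common subunits, SPTBN1 and SPTAN1, had many reads in both libraries and stood 6.94-fold and 5.48-fold higher in the IP. SPTB and SPTBN5 had few reads and stood 2.80-fold and 2.28-fold higher. The 5 listed spectrin genes together took 1.36% of all reads in the IP (1.35% to 1.36%) and 0.218% in Input (0.216% to 0.220%).

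SPTBN1 lies on the plus strand of chromosome 2, from 54456285 to 54671445 (GRCh38), with 41 merged exon blocks and 18504 bases of exons. It had 297579 IP reads and 43267 Input reads, or 12323 and 1776 CPM. It took 1.19% of all IP reads (1.18% to 1.19%) and 0.184% of all Input reads. Among nuclear protein-coding genes it held place 2 by reads in the IP and place 30 in Input. Long genes collect more reads, and by CPM per kb of exons it held place 25 in the IP and place 313 in Input. Its log2 ratio was 2.79 (2.78 to 2.81).

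SPTAN1, the alpha subunit among the 5 genes, lies on the plus strand of chromosome 9, from 128552558 to 128633662, with 62 exon blocks and 16226 exon bases. It had 41735 IP reads and 7686 Input reads, or 1728 and 315.5 CPM. Its log2 ratio was 2.45 (2.42 to 2.49), and its place by reads among nuclear protein-coding genes was 36 in the IP and 437 in Input. By CPM per kb of exons its place was 298 in the IP and 1949 in Input.

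SPTBN5 lies on the minus strand of chromosome 15, from 41848144 to 41894077, with 68 exon blocks. It had 424 IP reads and 187 Input reads, or 17.6 and 7.68 CPM, with the log2 ratio at 1.19 (0.94 to 1.45). The lower bound is under 2-fold. Of genes with 500 to 999 reads, 4.66% were called higher, and the log2 ratios of such genes had an SD of 0.58, of which counting would give 0.11.

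SPTB lies on the minus strand of chromosome 14, from 64746283 to 64879883, with 38 exon blocks. It had 112 IP reads and 40 Input reads, or 4.64 and 1.64 CPM, with the log2 ratio at 1.49 (0.97 to 2.06). At this depth the ratio is loosely set: 10.6% of genes with 100 to 199 reads were called higher, and their log2 ratios had an SD of 0.80, against 0.26 from counting. SPTB also shares 23.0% of its exon bases with PLEKHG3 on the opposite strand, which had 1473 IP reads and 767 Input reads. How many of the SPTB reads fall in the shared bases cannot be told from counts per gene. In a bulk lysate, few cells with SPTB RNA and little of it per cell cannot be told apart. Markers of red blood cells were close to absent: 7 of 9 had no read, HBB among them, and the list summed to 0.290 CPM in the ZMAT2 IP, against 0.575 CPM in Input. Of 10 markers of skeletal and heart muscle, 7 had no read and only TTN was kept, not called, at a log2 ratio of 0.74 with 15.6% of exon bases shared. The muscle list, nearly all of it TTN, summed to 308 CPM in the ZMAT2 IP, against 184 CPM in Input.

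SPTBN4, on the plus strand of chromosome 19 from 40466241 to 40576464, had 6 IP reads and 5 Input reads. These counts give a log2 ratio of 0.25 with an interval from -1.70 to 2.33, and a difference within these bounds was not detectable at this depth. Of 10 neuron markers, 6 were kept, with TUBB3 (35.8% of exon bases shared) called higher and MAP2 lower, and 3 had no read. Over all genes kept, 7.41% were higher and 6.96% lower, so these single calls do not set the list apart. The list summed to 67.2 CPM in the ZMAT2 IP, against 57.8 CPM in Input. TUBB3 alone made up 39.2 CPM of this in the IP and 18.6 CPM in Input. The median log2 ratio of the 6 kept was -0.50, and only TUBB3 lay above the median of all genes.

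Overlap with other genes was small for the more abundant members. SPTBN1 shares 4.48% of its exon bases, most of them with the antisense gene AC093110.3, which had 2444 IP reads and 533 Input reads, or 0.821% and 1.23% as many as SPTBN1. SPTAN1 shares 1.75%, most of it with the antisense gene RP11-216B9.9, whose 1827 IP reads and 392 Input reads came to 4.38% and 5.10% of those of SPTAN1. SPTBN5 shares 5.06%, mainly with RP11-23P13.6, which had 5 IP reads and 4 Input reads. SPTBN5 also shares 12 bases with JMJD7-PLA2G4B (120 IP and 118 Input reads) and 4 bases with PLA2G4B (49 IP and 109 Input reads). Without strand in the counting, reads of a gene and of its antisense partner cannot be told apart, and whether strand was used is not given in the sources used here.

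Compared per exon length, the family fell into an abundant and a scarce class in both libraries. SPTBN1 stood highest, at 666 CPM per kb in the IP and 96.0 CPM per kb in Input. SPTAN1 was at 107 CPM per kb in the IP and 19.4 CPM per kb in Input. SPTBN5 came next at 1.42 CPM per kb in the IP and 0.622 CPM per kb in Input, followed by SPTB at 0.313 CPM per kb in the IP and 0.111 CPM per kb in Input. SPTBN4 was lowest, at 0.0215 CPM per kb in the IP and 0.0178 CPM per kb in Input. The order of the 5 genes was the same in both libraries, and the counting intervals of neighbours in it did not overlap. The closest approach was between SPTB at 0.0791 to 0.151 CPM per kb and SPTBN4 at 0.00577 to 0.0415 CPM per kb, both in Input. The level of SPTBN1 per exon length was 6.25 times that of SPTAN1 in the IP and 4.94 times in Input.

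**Figure D1:**
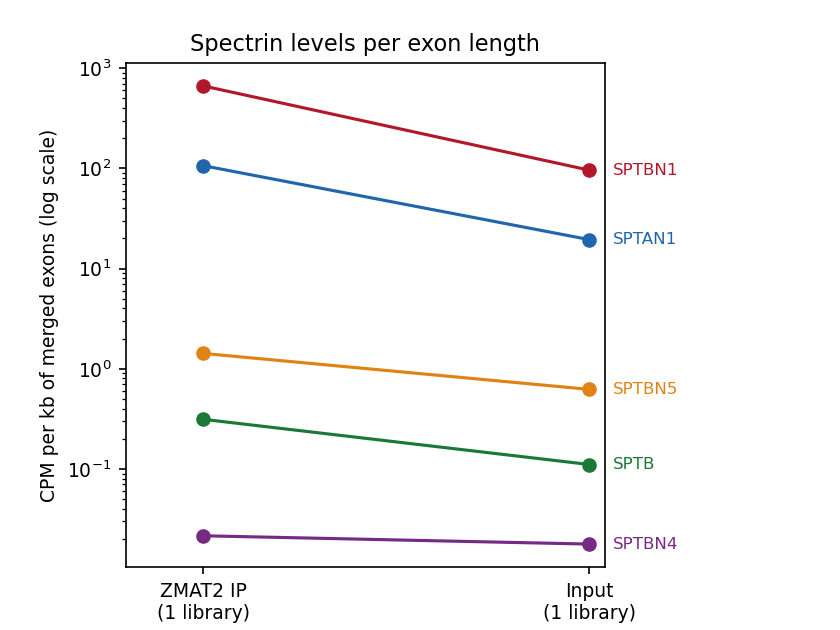
Level of each spectrin gene in CPM per kb of merged exons (log axis) in the 1 ZMAT2 IP library and the 1 Input library, with a line joining the values of a gene. SPTBN1 stands at 666 in the IP and 96.0 in Input, and the lines of SPTBN1 and SPTAN1 fall more steeply toward Input than those of SPTBN5, SPTB and SPTBN4.

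Within each library, nearly all reads of the 4 listed beta genes were those of SPTBN1. It made up 99.82% of them in the IP (99.80% to 99.83%) and 99.47% in Input (99.39% to 99.53%). SPTBN5 had 0.142% of these reads in the IP (0.129% to 0.156%) and 0.430% in Input (0.371% to 0.496%). SPTB had 0.0376% in the IP (0.0309% to 0.0452%) and 0.0920% in Input (0.0657% to 0.125%). SPTBN5 and SPTB therefore took smaller shares of these reads in the IP, by more than counting error, while their own ratios over Input were above those of most genes. The alpha gene SPTAN1 made up 12.3% of the reads of the 5 listed spectrin genes in the IP (12.2% to 12.4%) and 15.0% in Input (14.7% to 15.3%).

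Differences between members in the log2 ratio were computed for all 6 pairs of the 4 genes kept. They do not depend on the scaling between libraries. Their intervals cover counting error only. SPTBN1 stood 0.34 (0.30 to 0.38) above SPTAN1, less than the SD of 0.95 of log2 ratios among genes with at least 10000 reads. SPTB stood lower than SPTAN1 by a difference of -0.96 (-1.49 to -0.40) and lower than SPTBN1 by -1.30 (-1.83 to -0.74). SPTBN5 stood lower than SPTAN1 by -1.26 (-1.51 to -1.001) and lower than SPTBN1 by -1.60 (-1.85 to -1.34). SPTBN5 and SPTB, neighbours in the order, differed by -0.30 with an interval of -0.92 to 0.29 that includes 0. With 2 reads taken as 1, because both mates of a pair appear to have been counted, the interval that includes 0 was still that of SPTBN5 and SPTB alone among the 6.

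Set against other genes, the abundant spectrins lay near the top of the range of ratios. Of 12953 nuclear protein-coding genes kept, 40 had a higher log2 ratio than SPTBN1, 52 a higher one than SPTAN1, 286 than SPTB and 546 than SPTBN5. Among genes with at least 10000 reads, to which SPTBN1 and SPTAN1 belong, 9.23% were called higher. In that class the log2 ratios had an SD of 0.95, of which counting would give 0.024, so the counting intervals of SPTBN1 and SPTAN1 cover a small part of the spread between these libraries.

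**Figure D2:**
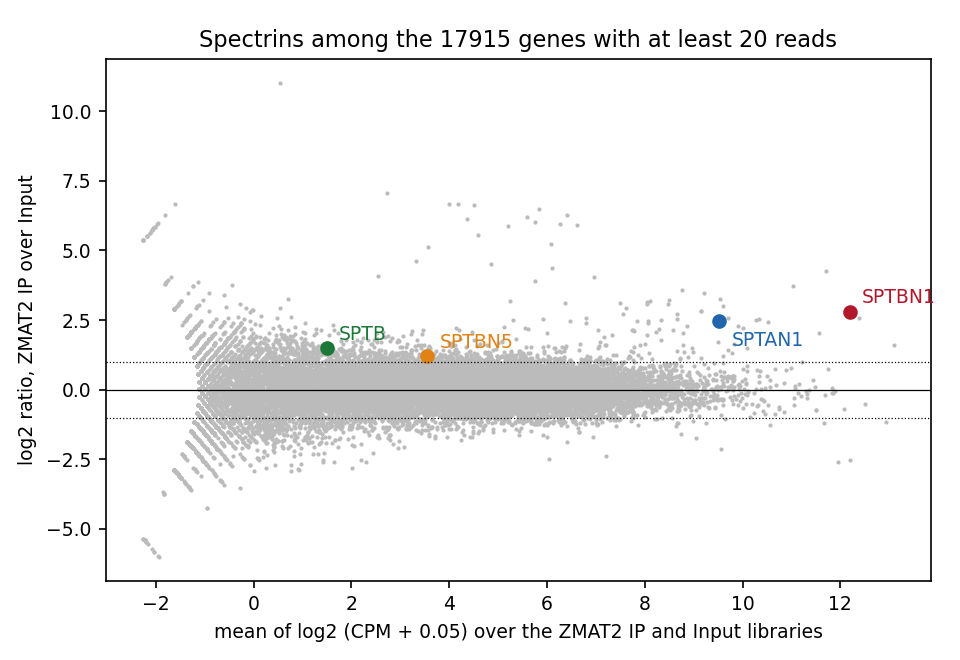
Each grey point is 1 of the 17915 genes kept, with its mean log2 (CPM + 0.05) over both libraries on the x axis and its log2 ratio of ZMAT2 IP over Input on the y axis; dotted lines mark 2-fold. SPTBN1 lies at a log2 ratio of 2.79 at the far right, among the genes with the highest CPM not scaled by length. SPTB and SPTBN5 lie at 1.49 and 1.19 just above the dense band.

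Spectrin genes are long and have many exons, so they were also placed among genes with many exons. Length was not matched. Of 985 nuclear protein-coding genes with at least 30 merged exon blocks, 11.8% were called higher and 3.35% lower, with a median log2 ratio of 0.11. In this class 7 genes had a higher log2 ratio than SPTBN1, 13 a higher one than SPTAN1, 46 than SPTB and 86 than SPTBN5. Genes with as many exons as the spectrins thus covered a wide range of ratios, and the spectrins lay in its upper part.

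**Figure D3:**
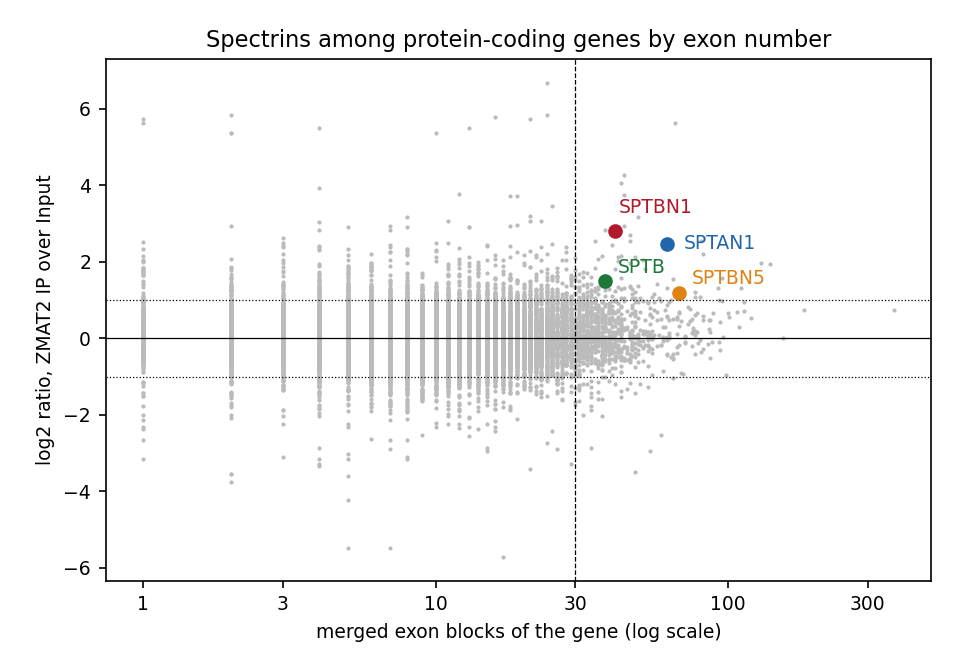
Log2 ratio of ZMAT2 IP over Input (y axis) against the number of merged exon blocks (x axis, log scale) for nuclear protein-coding genes kept, in grey, with the 4 listed spectrins kept in colour; the dashed line marks 30 blocks and dotted lines mark 2-fold. Most genes to the right of the dashed line lie within 2-fold, with a median of 0.11, below all 4 spectrin genes kept.

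The genes most like the common subunits were sought among 635 other protein-coding genes with at least 30 exon blocks and 1000 reads, by the absolute difference in log2 ratio between these 2 libraries. Nearest to SPTBN1 were MICAL3 at 2.71 (2.64 to 2.78), with 16.3% of exon bases in other genes too, FLNA at 2.70 (2.65 to 2.75) and PLEC at 2.94 (2.86 to 3.01). MICAL3 encodes a flavin monooxygenase, FLNA filamin A and PLEC plectin. Nearest to SPTAN1 were IQGAP1, a scaffold protein gene, at 2.45 (2.39 to 2.51), LIMCH1 at 2.53 (2.41 to 2.66) and MPRIP, which encodes a protein that binds myosin phosphatase and RhoA, at 2.53 (2.48 to 2.58).

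Proteins that share the spectrin repeat were next. Of 17 listed genes, 16 were kept, 8 were called higher and none lower. The median log2 ratio was 1.02, against 0.0059 over all genes kept, of which 7.41% were higher. Many of the listed genes have at least 30 exon blocks. Of nuclear protein-coding genes in that class, 11.8% were called higher, and their median log2 ratio was 0.11. UTRN, which encodes utrophin, the link between actin and the dystroglycan complex outside muscle, had 76066 IP reads and 13115 Input reads, which gave a log2 ratio of 2.55 (2.52 to 2.58). ACTN4, a non-muscle alpha-actinin that bundles actin, had 53209 IP reads and 11644 Input reads, which gave a log2 ratio of 2.20 (2.18 to 2.23), with 14.2% of its exon bases shared. Farthest from the bulk of genes was PLEC, whose product ties intermediate filaments to actin and to adhesion sites, with 13200 IP reads and 1739 Input reads, which gave a log2 ratio of 2.94 (2.86 to 3.01). The list was not uniform. The 1 member under the median of all genes was DMD, the dystrophin gene, at -0.32 (-0.47 to -0.17), and SYNE1, which encodes the nuclear envelope protein nesprin-1, had 693 reads in each library and a ratio of 0.01 (-0.14 to 0.17). Both were named after their values were seen.

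The kept partners that hold spectrin at the membrane had lower log2 ratios than SPTBN1 and SPTAN1, as did nearly all genes. Of 12953 nuclear protein-coding genes kept, 40 lay above SPTBN1 and 52 above SPTAN1, so this does not set the partners apart. Neither of the 2 ankyrins kept of 3 listed passed 2-fold, though both lay above the median of all genes. Of all genes kept, 84.8% were within 2-fold, so the absence of calls does not set the ankyrins apart. ANK3, the ankyrin of epithelial lateral membranes and axon initial segments, had a log2 ratio of 0.98 (0.81 to 1.16) from 778 IP reads and 397 Input reads. ANK2 had a log2 ratio of 0.87 (0.71 to 1.03) from 949 IP reads and 524 Input reads. Both intervals overlap that of SPTBN5, at 1.19 (0.94 to 1.45). Of 11 listed membrane proteins and adhesion partners, 7 were kept, with 1 called higher and none lower and a median of 0.56. With 7.41% of all genes higher, 1 call among 7 genes does not set this list apart. CTNNA1, alpha-catenin, was at 0.56 (0.50 to 0.61) with 5.89% of exon bases shared, and ATP1B1, a beta subunit of the sodium pump, at -0.37 (-0.43 to -0.31) with 6.48% shared. The 1 called member was L1CAM, a neural adhesion molecule that binds ankyrin, with 132 IP reads and 56 Input reads, which gave a log2 ratio of 1.24 (0.79 to 1.73) and 6.18% of exon bases shared.

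The genes of the junctions where spectrin meets actin fell on both sides of the median. No adducin, dematin or band 4.1 gene was called in either direction, where 7.41% of all genes kept were higher and 6.96% lower. With so few genes kept, the absence of calls does not set these lists apart. Among the adducins, which cap actin filaments and recruit spectrin, ADD1 had a log2 ratio of 0.28 (0.23 to 0.33) and ADD3 one of -0.56 (-0.61 to -0.51). DMTN, the actin-bundling protein dematin, had 135 IP reads and 70 Input reads and a ratio of 0.96 (0.53 to 1.40). The 4 kept of 6 genes for band 4.1 proteins, which strengthen the bond of spectrin to actin, and for their partners had a median of -0.13. EPB41L2 stood at -0.25 (-0.29 to -0.21) and EPB41, with 5.76% of exon bases shared, at -0.23 (-0.32 to -0.13).

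Of the 10 genes for actin, tropomyosins and tropomodulins, 3 were called higher and none lower, where 7.41% of all genes kept were higher and 6.96% lower. The called genes were TMOD1, TMOD2 and TMOD3, which encode caps of the pointed ends of actin filaments. The fourth tropomodulin gene, TMOD4, was not called, at 0.41 (-0.94 to 1.85) from 12 IP reads and 9 Input reads, and all of its exon bases are shared with other genes. TMOD3 had 24928 IP reads and 2989 Input reads, which gave a log2 ratio of 3.07 (3.02 to 3.13), with 6.20% of exon bases shared. TMOD1 was at 1.998 (1.72 to 2.29) but shares 45.0% of its exon bases, and TMOD2 was at 1.66 (1.13 to 2.24), both named after their values were seen. Actin itself stood with the bulk of genes: ACTB had 53034 IP reads and 51760 Input reads, which gave a log2 ratio of 0.05 (0.03 to 0.07). The tropomyosin gene TPM3 had a ratio of -0.14 (-0.16 to -0.11). The median of the list was 0.23.

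**Figure D4:**
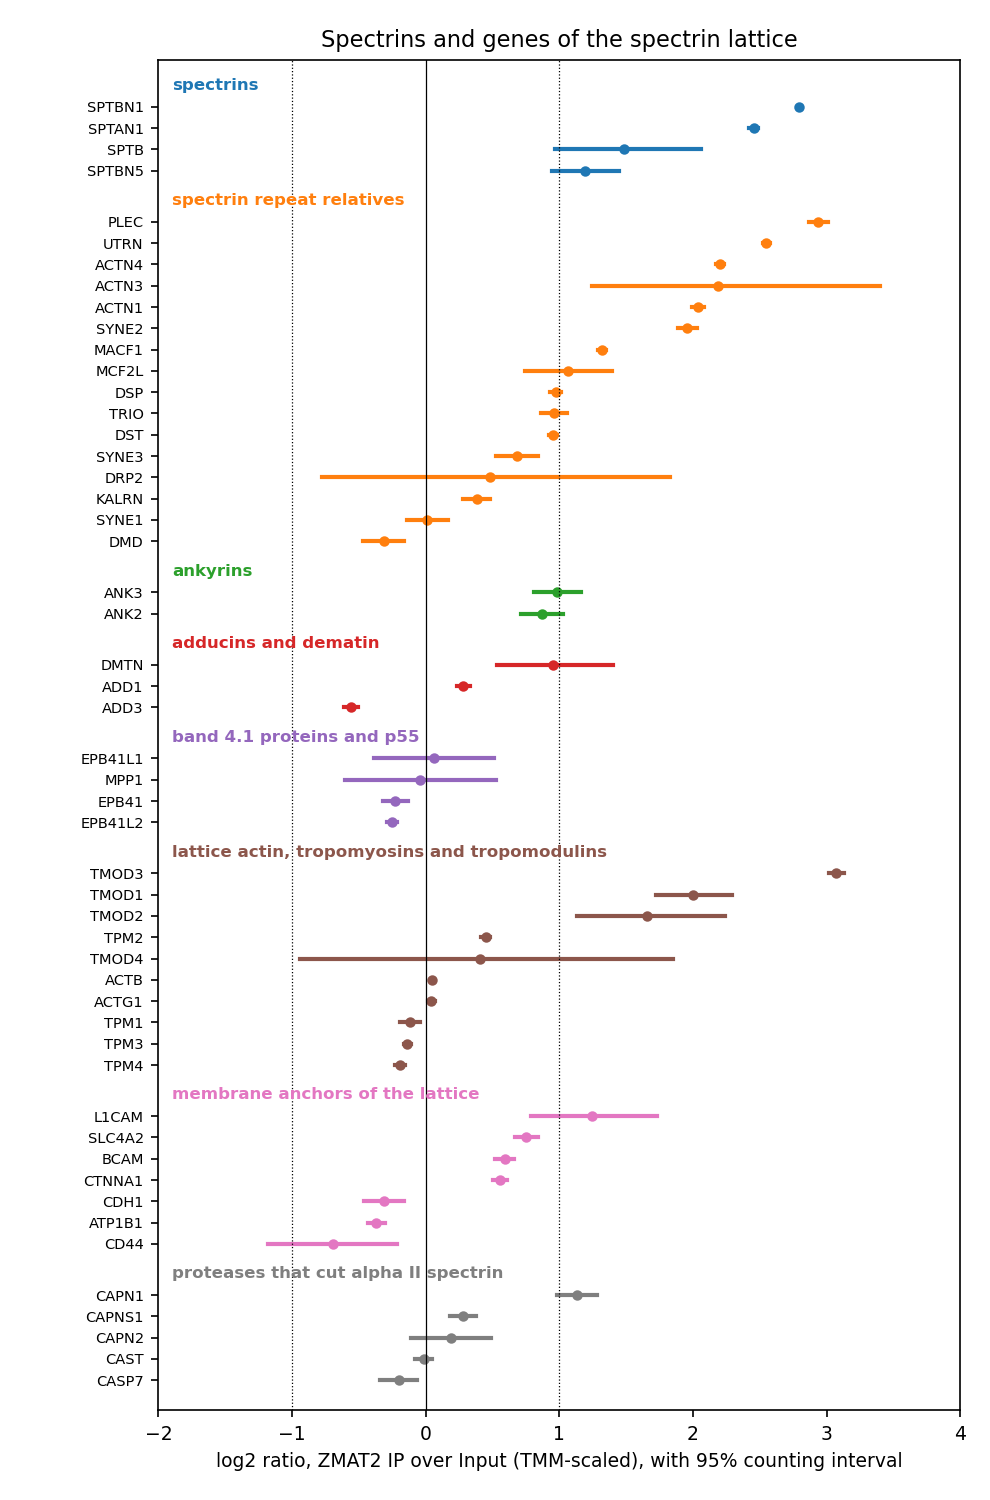
Log2 ratio of ZMAT2 IP over Input for every kept gene of the spectrin lists other than the TGF-beta and SMAD genes, which are not drawn. Bars are 95% counting intervals and dotted lines mark 2-fold. Genes run from the highest to the lowest within each list. The spectrins at 1.19 to 2.79 stand to the right of all band 4.1 genes and of actin, alongside PLEC at 2.94, UTRN at 2.55 and the tropomodulin gene TMOD3 at 3.07.

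Genes for proteins that act on spectrins were mixed. Of 5 genes for proteases that cut alpha II spectrin, a subunit and an inhibitor, 1 was called higher and none lower, with a median of 0.19, beside 7.41% of all genes higher. A single call in so short a list does not set it apart either. CAST, the calpain inhibitor calpastatin, had a log2 ratio of -0.02 (-0.08 to 0.05) and CAPNS1, the small calpain subunit, one of 0.28 (0.18 to 0.38). The called gene was CAPN1, a calpain, at 1.13 (0.98 to 1.28) from 1164 IP reads and 536 Input reads, with 5.73% of exon bases shared. In mice, beta II spectrin has been described as an adaptor of SMAD proteins in TGF-beta signalling. Of 6 genes of that pathway none was called higher and 1 lower, with a median of -0.27, beside 6.96% of all genes lower, and this single call too is no result about the list. The called gene was the receptor gene TGFBR1, at -1.15 (-1.24 to -1.05), while the other receptor gene TGFBR2 was at 0.13 (0.06 to 0.20) and SMAD2 at -0.50 (-0.59 to -0.41).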

How the data were processed

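RNA of HUH7 cells was measured in 1 ZMAT2 IP and 1 Input library made with a stranded mRNA kit, per the labels' protocols. The authors deposited raw read counts by gene, in whole numbers and with no normalization, beside exon coordinates and merged exon length. The submitters' processing notes list edgeR 3.12.1, STAR 2.5.3a and fastp 0.23.4, and the build GRCh38. Which counter and annotation release were used is not given in the sources used here. Of counts from 1 to 6, 77.9% in the IP and 67.1% in Input were even, so the mates of a pair were probably counted apart. Intervals on reads are then too narrow, and all cover counting error only.

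TMM factors came from edgeR 4.0.16 in R 4.3.3 over genes with at least 20 reads. The log2 ratio used a prior count of 0.5, and a Clopper-Pearson (exact) interval for the fraction of a gene's reads found in the IP was turned into the interval of the ratio. Levels have exact Poisson intervals and differences between genes exact conditional ones. The calculation was tested on simulated counts that had counting error only. That test therefore does not cover mates counted apart or a spread wider than counting. Shared exon bases, on either strand, come from the deposited coordinates, and biotypes from RefSeq (GRCh38.p14), where 33451 names matched by symbol and position and 1807 by an older symbol.

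The members and lists were chosen with earlier results of these data known. From each list the text names the 2 kept genes with the most reads and the one whose log2 ratio lay farthest from the overall median, fewer from marker lists. Protein sequences were not used here, so the planned identity between spectrins was not computed. Some genes of the lists are not reported here and enter no list count or share.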

Additional observations from a re-analysis of the deposited data

How the results depend on the processing

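All 4 spectrin genes kept were called higher, and none lower, under each of 7 alternatives: library totals, totals without mitochondrial genes, DESeq2 size factors, a minimum of 1 or 100 reads, intervals on pairs of reads and a prior count of 2. With library totals the log2 ratio was 2.35 for SPTAN1 and 2.69 for SPTBN1, and with totals without mitochondrial genes it was 2.41 and 2.75. SPTBN5 came closest to the 2-fold cut, at 1.09 with library totals and 1.14 without mitochondrial genes. SPTB was at 1.38 and 1.44. With no minimum SPTBN1 stood at 2.81. In pairs of reads the interval of SPTB widened to 0.74 to 2.31 and that of SPTBN5 to 0.83 to 1.55. Over all genes, 1328 were called higher and 1247 lower. With no minimum there were 2004 and 2013, and with a minimum of 100 reads 761 and 582, since more or fewer genes were compared. Of the 11079 genes sharing under 5% of exon bases, 785 were higher and 861 lower. SPTBN1 and SPTAN1 are among these genes, while SPTB and SPTBN5, which share 23.0% and 5.06%, are not, so their calls were not run under this alternative. Per kilobase of exons, SPTBN1 made up 99.74% of the listed beta spectrins in the IP and 99.22% in Input, and SPTAN1 made up 13.8% and 16.7% of the 5 listed spectrins. Depth limits SPTB and SPTBN4 most. No paired analysis was possible because each group holds 1 library.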
